A study of Mus musculus with 292 samples.

Results

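Atf4, Atf5, Atf3, Ddit3, Trib3, Chac1, Asns, Sesn2, Ppp1r15a and Xbp1 are 10 genes of the integrated stress response and of the unfolded protein response that joins it. They were chosen by symbol, with earlier results of these data known, as the 10 of 48795 gene identifiers in the count tables that map to these names. Each had 1 identifier, and all 10 passed the filter on low counts in every tissue. Messenger RNA had been sequenced from liver, hypothalamus, striatum and right-hemisphere cortex of C57BL/6J mice, all wild-type males of 26 weeks, and no group carried an allele or a treatment that the labels name. Tissue was taken at 13 time points, 3 h apart and ending at 36 h, which make 8 groups when taken modulo a day as zeitgeber time (ZT, conventionally counted from lights-on; the labels used here state neither the light nor the feeding schedule). ZT15, ZT18 and ZT21 were sampled in the first cycle only. There were 77 liver, 77 hypothalamus, 60 striatum and 78 cortex libraries from 79 coded mice, each library of a tissue from its own mouse. The code of striatum ZT9 replicate 8 occurs in that tissue alone and lacks 1 letter of a code used at the same time in the other tissues, so the mice may number 1 fewer, and this library entered no pairing within mice. A ZT group held 6 to 12 libraries outside the striatum, and in striatum it held as few as 2 at ZT15 and 4 at ZT18.

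Gene counts per library summed to 11.7 to 41.9 M (mega) in liver, 29.2 to 50 M in hypothalamus, 11.7 to 43.4 M in striatum and 28.3 to 40.5 M in cortex. Markers matched the labelled tissue in most libraries, with exceptions. In cortex, replicate 1 of ZT0 had 4.41 CPM and replicate 9 of ZT9 had 12.7 CPM of Slc17a7, a marker of cortical excitatory neurons, where the other cortex libraries held at least 882 CPM. The same 2 libraries held the most Drd1, a dopamine receptor gene of striatum, among cortex libraries, with 233 and 310 CPM, where the third highest held 107 CPM. In the liver library ZT18 replicate 4 a single gene model, Gm42418, took 62.3% of the counts. Its median share was 1.07% in liver, 0.255% in cortex, 2% in hypothalamus and 3.88% in striatum. It reached 15.9% in hypothalamus ZT18 replicate 4 and 17.6% in striatum ZT3 replicate 5. The former library also held the highest Atf4 (169.5 CPM), Atf5 (23.87 CPM) and Ppp1r15a (18.69 CPM) of hypothalamus. Striatum libraries differed in dissection markers: the sum of 5 striatal genes ran from 56.7 to 5020 CPM. The sum of 4 choroid plexus genes reached 21900 CPM, in ZT12 replicate 11, and ZT21 replicate 3 held 3270 CPM of 4 cerebellar genes. The sum of 6 hypothalamic genes had a median of 67.5 CPM in striatum and reached 333 CPM, against a median of 1.98 CPM in cortex. In hypothalamus, replicate 9 of ZT0 and replicate 9 of ZT9 had the most pituitary RNA, with a sum of 5 genes up to 37700 CPM. Replicate 5 of hypothalamus ZT15 had 412 CPM of the striatal genes, where the third highest sum in hypothalamus was 68.7 CPM, and the lowest hypothalamic Pmch (326 CPM) and Oxt (26.5 CPM), both neuropeptide genes of that tissue. Without it the same number of the 10 genes was called in hypothalamus over 24 h (3) and over 12 h (0), in a repeat chosen after its markers were seen. A repeat of each test left out together the libraries called below those that stood apart. They were the 2 cortex libraries, liver ZT18 replicate 4, and replicate 9 of hypothalamus ZT0 and ZT9. Striatum ZT21 replicate 3 and the shallow striatum library ZT3 replicate 5 (11.7 M counts) were also among them. Other libraries stayed in, such as striatum ZT12 replicate 11 and hypothalamus ZT18 replicate 4. The part of the libraries named here in any result below was otherwise not tested.

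In the integrated stress response, kinases that sense misfolded protein, amino acid shortage, double-stranded RNA or lack of haem phosphorylate the translation factor eIF2. General translation slows, while the messenger RNAs of Atf4 and Atf5 are translated more. The transcription factor ATF4 then acts, with C/EBP partners and with CHOP (the product of Ddit3), on genes of amino acid supply, redox control and cell death, and Ppp1r15a (GADD34) ends the response by bringing a phosphatase to eIF2. Xbp1 belongs to the sister branch of the unfolded protein response, in which the kinase and nuclease IRE1 splices its RNA. In liver, where amino acid supply and secretory load follow feeding, this branch is known for rhythms of 12 h beside those of 24 h. Counts per gene show neither the translation of Atf4 and Atf5 nor the splicing of Xbp1.

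On GRCm38 the transcription factor genes lie as follows: Atf4 (ENSMUSG00000042406) at chr15:80255184-80257541, Atf5 (ENSMUSG00000038539) at chr7:44812256-44816658, Atf3 (ENSMUSG00000026628) at chr1:191170296-191218039, Ddit3 (ENSMUSG00000025408) at chr10:127290774-127296288 and Xbp1 (ENSMUSG00000020484) at chr11:5520659-5525893. The target genes are Trib3 (ENSMUSG00000032715) at chr2:152337422-152344032, Chac1 (ENSMUSG00000027313) at chr2:119351229-119354381, Asns (ENSMUSG00000029752) at chr6:7675169-7693254 and Sesn2 (ENSMUSG00000028893) at chr4:132492032-132510501, and the phosphatase subunit gene is Ppp1r15a (ENSMUSG00000040435) at chr7:45522916-45526268.

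RefSeq promoter windows on GRCm38.p6, from 250 bases before to 50 after each annotated start, were found for all 10 genes (11 windows, since Atf5 has more than 1 start). They were searched on both strands for the C/EBP-ATF response element TGATGNAA, through which ATF4 is known to act, and for the cAMP response element TGACGTCA. The first was found in 4 of the genes and in 3.97% of all 32851 windows, the second in 1 gene and in 1.79% of windows. These stretches are shown because Trib3, Chac1, Atf3 and Asns share the element although their patterns over the day, described further on, differ. Each is written 5′ to 3′ on the strand of its gene, with the match in capitals and 20 bases on each side (11 for Trib3).
Atf3, chr1:191183416-191183463, minus strand: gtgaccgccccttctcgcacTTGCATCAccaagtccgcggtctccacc
Trib3, chr2:152344028-152344057, minus strand: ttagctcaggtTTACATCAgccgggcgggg
Chac1, chr2:119351029-119351076, plus strand: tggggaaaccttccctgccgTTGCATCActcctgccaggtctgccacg
Asns, chr6:7693201-7693252, minus strand: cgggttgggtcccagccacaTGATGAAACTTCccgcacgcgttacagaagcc
Ppp1r15a, chr7:45526253-45526300, minus strand: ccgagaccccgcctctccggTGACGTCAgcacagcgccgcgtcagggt
In Atf3, Trib3 and Chac1 the element reads on the opposite strand, and its 8 bases start at -110, 14 and -193 from the RefSeq start. In Asns it starts at -23, and the capitals run on because the heat shock motif GAANNTTC overlaps it; that motif was in 7.86% of windows. The cAMP response element of Ppp1r15a starts at -12. The windows of the 10 genes held no match to the core of the unfolded protein response element TGACGTGG (0.676% of all windows), the E-box CACGTG (7.15%), the D-box TTATGTAA (0.938%) or the ER stress response element CCAAT and CCACG set 9 bases apart (0.119%). A match describes the letters and not a bound site.

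In liver the genes of the response kept different times of day. Trib3 peaked at ZT7.3 with a fitted peak 7.95-fold over its trough, Atf5 at ZT1.2 with 3.27-fold, and Ddit3, Atf3 and Atf4 between ZT18.8 and ZT20.7 with 2.42-, 2.51- and 1.40-fold. The fitted peaks of Chac1, Sesn2 and Ppp1r15a lay from ZT9.5 to ZT10.4, while their highest group means were at ZT12. Xbp1 and Asns did not pass the test over 24 h. Here and throughout, a cosine with a period of 24 h was tested with edgeR's quasi-likelihood test, adjusted by Benjamini and Hochberg over all genes tested in the tissue (edgeR adjusted p) and called under 0.05. The fitted ratio is never below 1, noise included. Peak times throughout are those of the fitted cosine, and the highest group mean can lie at another time. In liver that mean was at ZT0 for Atf4 and at ZT15 for Atf3 and Ddit3. In all, 8 of the 10 genes were called in liver, where 72.8% of all genes were, so the share called was near the background. The median fitted log2 ratio of the 10 was 0.99, against 0.38 over all genes. Plots of the values by time show these patterns in single libraries.

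**Figure D1:**
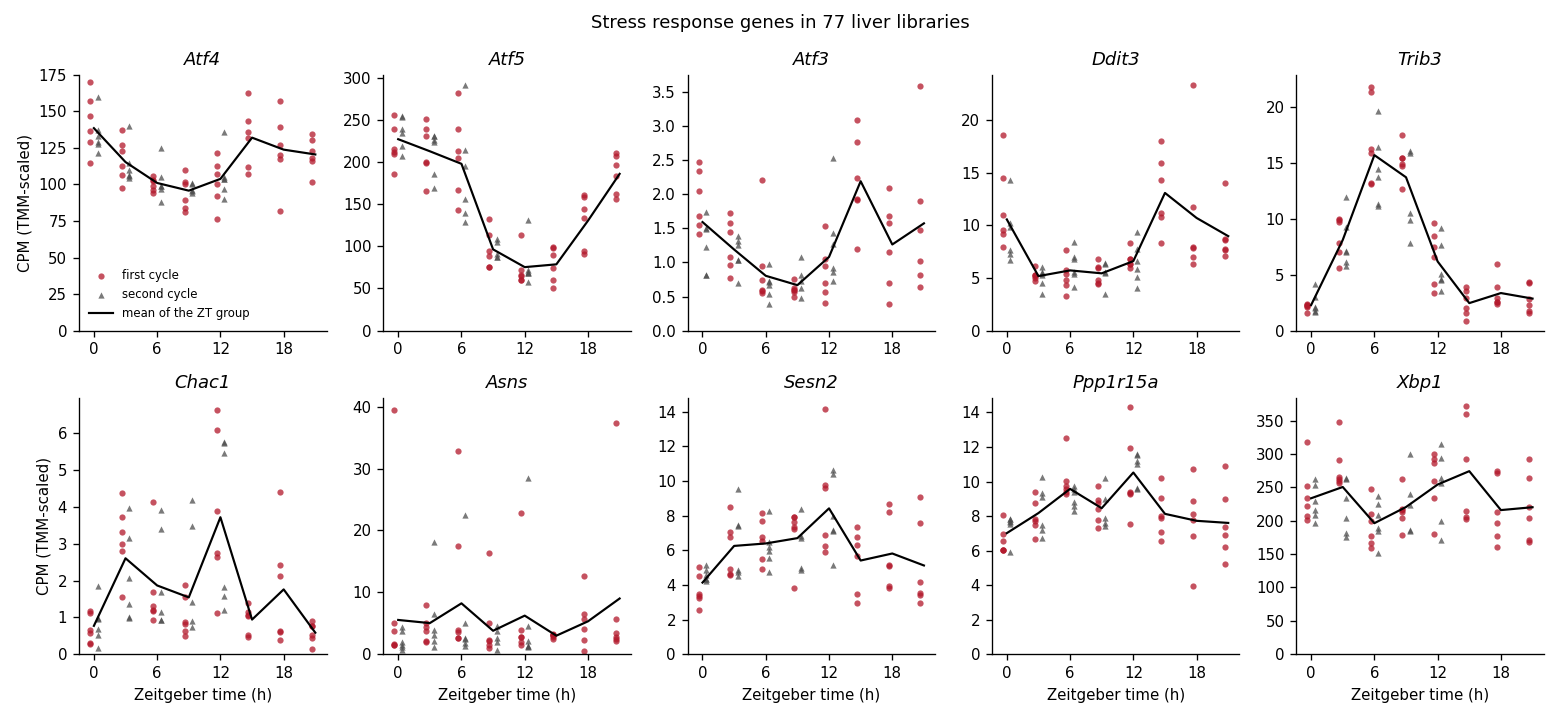
CPM (TMM-scaled) of each gene in the 77 liver libraries against zeitgeber time in hours, circles for the first and triangles for the second cycle, with a line through the ZT group means. Trib3 is high at ZT6 and ZT9 and Atf5 at ZT0 to ZT6, while Asns is low in most libraries at every time and reaches 39.4 CPM in a few.

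Atf4, the central transcription factor, had a smaller ratio than Atf3, Ddit3 and Atf5. Values are CPM, the counts divided by the TMM-scaled library total in M. At ZT0 it had 114.6 CPM in the lowest, 134.7 in the median and 170.3 in the highest of 12 libraries, against 81.2, 95.9 and 109.8 CPM in the 11 libraries of ZT9. Those groups did not overlap. They were picked as the groups with the highest and lowest mean of the gene, as were most pairs of groups below. Their separation is thus no separate test of the rhythm, and the share of all genes with such a separation was not computed. The fitted log2 ratio was 0.49 ± 0.06 (SE, n = 77) with its peak at ZT20.7 (edgeR adjusted p = 2.62e-09). The groups ZT15, ZT18 and ZT21 averaged 132.0 ± 20.4, 123.8 ± 25.01 and 120.5 ± 11.6 CPM (SD, n = 6 each).

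Atf5 encodes a related transcription factor, abundant in liver, that takes part in the mitochondrial stress response. It had 185.4, 226.3 and 255.1 CPM (lowest, median and highest of 12) at ZT0, against 58.0, 68.5 and 130.9 CPM in the 12 libraries of ZT12, with no overlap. From ZT0 to ZT6 the group means lay between 197.7 and 226.9 CPM, at ZT9 the mean was 96.3 ± 17.1 CPM (SD, n = 11), and by ZT21 it was 185.8 ± 23.1 CPM (SD, n = 6). Its fitted log2 ratio of 1.71 ± 0.10 (SE, n = 77) carried the smallest p of the 10 genes (edgeR adjusted p = 2.24e-24). Of its exonic bases 4.11% lie under Il4i1 and Nup62 on the other strand, and the strand setting of the counting is not given in the sources used here.

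Atf3 and Ddit3 encode stress-induced transcription factors that work with or against ATF4, and both were higher in the second part of the cycle. Atf3 had 1.197, 2.09 and 3.10 CPM (lowest, median and highest of 6) at ZT15, against 0.484, 0.624 and 1.08 CPM in the 11 libraries of ZT9. The groups did not overlap, and the log2 ratio was 1.33 ± 0.21 (SE, n = 77; edgeR adjusted p = 6.41e-07) with a peak at ZT19.5. Counts of Atf3 in liver were low, with a median of 33 reads a library.

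Ddit3, which encodes CHOP, had 8.33, 12.7 and 18.0 CPM (lowest, median and highest of 6) at ZT15, against 3.52, 5.33 and 6.16 CPM in the 12 libraries of ZT3. It then had 10.6 ± 3.55 CPM at ZT0 (SD, n = 12), so that its mean at ZT3, 5.18 ± 0.701 CPM (SD, n = 12), came 3 h after a higher one. The log2 ratio was 1.28 ± 0.15 (SE, n = 77; edgeR adjusted p = 6.88e-11), with the peak at ZT18.8. Of its exonic bases 4.73% are shared with Mars and Gm4189, and GENCODE M21 lists a further model of the same symbol, so its counts carry that uncertainty.

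Trib3, a pseudokinase that binds AKT and restrains ATF4 and CHOP, had the largest ratio of the 10. It had 11.1, 15.2 and 21.8 CPM (lowest, median and highest of 12) at ZT6, against 1.54, 2.12 and 4.13 CPM in the 12 libraries of ZT0. Every ZT6 library was above every ZT0 library. The ZT3 and ZT9 groups averaged 8.10 ± 2.01 (SD, n = 12) and 13.7 ± 3.03 CPM (SD, n = 11), and ZT15, ZT18 and ZT21 between 2.46 and 3.36 CPM. The log2 ratio was 2.99 ± 0.20 (SE, n = 77; edgeR adjusted p = 6.55e-23). At ZT6 the second cycle gave 14.4 ± 3.23 CPM, against 16.9 ± 3.83 CPM in the first (SD, n = 6 each).

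Chac1, an enzyme that breaks down glutathione, had 1.11, 3.32 and 6.61 CPM (lowest, median and highest of 12) at ZT12, against 0.151, 0.635 and 0.889 CPM in the 6 libraries of ZT21. The groups did not overlap, although values at ZT12 spanned more than at any other time. The log2 ratio was 1.45 ± 0.34 (SE, n = 77; edgeR adjusted p = 0.0012), and with the first cycle alone, on fewer libraries, a log2 ratio of 1.3 missed the threshold (edgeR adjusted p = 0.052).

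Sesn2, a leucine-binding inhibitor of mTORC1 signalling, had 5.16, 7.60 and 14.2 CPM (lowest, median and highest of 12) at ZT12, against 2.53, 4.35 and 5.16 CPM in the 12 libraries of ZT0. The groups met without overlapping. Its log2 ratio was 0.70 ± 0.13 (SE, n = 77) with a peak at ZT10.4 (edgeR adjusted p = 2.5e-05). Ppp1r15a, the phosphatase subunit that reverses eIF2 phosphorylation, had 7.53, 10.3 and 14.3 CPM at ZT12 and 5.91, 7.24 and 8.08 CPM at ZT0 (lowest, median and highest of 12 each), and 11 of the 12 ZT12 libraries were above all of ZT0. Its log2 ratio was 0.43 ± 0.08 (SE, n = 77; edgeR adjusted p = 7.2e-06).

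Asns, which makes asparagine and is a classic target of amino acid shortage, was low in most livers and high in a few. Of 77 liver libraries, 67 held at most 8 CPM and the other 10 held 12.7 to 39.4 CPM. Those 10 came from 7 of the 8 ZT groups, with at most 3 in one group. Group means ran from 3.01 ± 0.323 CPM at ZT15 to 9.01 ± 13.98 CPM at ZT21 (SD, n = 6 each), and the groups overlapped. The log2 ratio over 24 h was 0.35 ± 0.45 (SE, n = 77; edgeR adjusted p = 0.779).

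A period of 12 h was tested as an addition to the 24 h cosine. Xbp1, Trib3, Chac1, Atf3 and Atf5 passed in liver, that is 5 of 10 genes, where 15.4% of all genes did. Xbp1 had a 12 h log2 ratio of 0.35 ± 0.09 (SE, n = 77; edgeR adjusted p = 0.0104) with peaks at ZT1.6 and ZT13.6, against 0.17 ± 0.10 over 24 h (edgeR adjusted p = 0.289). Its group means were 250.5 ± 47.4 CPM at ZT3, 196.3 ± 30.6 at ZT6, 254.2 ± 48.6 at ZT12 (SD, n = 12 each), 274.2 ± 78.3 at ZT15 and 215.9 ± 48.0 CPM at ZT18 (SD, n = 6 each). Single libraries of those groups overlapped. With ZT as 8 free groups in place of a cosine, Xbp1 in liver was called (edgeR adjusted p = 0.0108).

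Trib3 had a 12 h log2 ratio of 0.86 ± 0.15 (SE, n = 77; edgeR adjusted p = 8.63e-05) with fitted peaks at ZT6.7 and ZT18.7, beside its larger 24 h ratio. Its group mean was 15.7 CPM at ZT6. Near the second fitted peak it was 3.36 CPM at ZT18, beside 2.46 CPM at ZT15 and 2.86 CPM at ZT21. Chac1 had 1.29 ± 0.34 (edgeR adjusted p = 0.0245) and Atf3 0.68 ± 0.20 (edgeR adjusted p = 0.0277; SE, n = 77 each), with first peaks at ZT2.8 for Chac1 and ZT2.3 for Atf3. In the first cycle alone, on fewer libraries, the log2 ratios were larger, at 1.4 for Chac1 and 0.82 for Atf3, and both missed the threshold (edgeR adjusted p = 0.111 for Chac1 and 0.0726 for Atf3). Atf5 was called at 0.30 ± 0.10 (SE, n = 77; edgeR adjusted p = 0.0495), and 6 other settings took it past 0.05, with adjusted p from 0.0556 to 0.0992.

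The brain tissues showed smaller daily changes, and Xbp1 was the gene called in each of them. In hypothalamus 3 of 10 genes were called over 24 h, where 24.3% of all genes were. In striatum it was 1 of 10, where 5.70% of all genes were, and in cortex 6 of 10, where 43.7% were. The median log2 ratio of the 10 was 0.17 in hypothalamus, 0.18 in striatum and 0.16 in cortex, against 0.16, 0.24 and 0.19 over all genes.

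**Figure D2:**
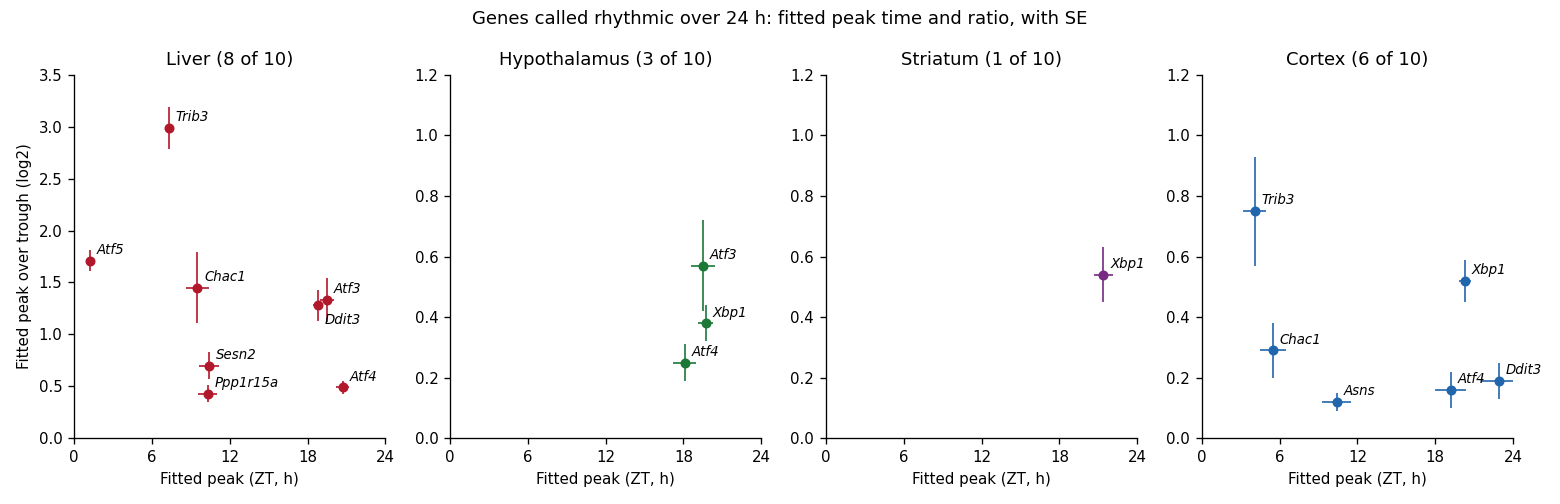
Fitted peak time (ZT, hours) against the fitted log2 ratio of peak over trough for the genes called over 24 h in each tissue, with standard errors. The liver axis reaches 3.5 and the brain axes 1.2; Xbp1 lies between ZT19.7 and ZT21.4 in all 3 brain tissues, and Trib3 reaches 2.99 in liver and 0.75 in cortex.

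Xbp1 in cortex had 90.3, 97.2 and 125.2 CPM (lowest, median and highest of 6) at ZT15, against 57.6, 62.8 and 87.7 CPM in the 12 libraries of ZT9. The groups did not overlap, and the log2 ratio was 0.52 ± 0.07 (SE, n = 78; edgeR adjusted p = 4.9e-09), with the fitted peak at ZT20.3. The group means around that time were 102.3 CPM at ZT15, 82.2 at ZT18, 83.8 at ZT21 and 91.0 CPM at ZT0. In striatum its 4 libraries at ZT18 held 107.0 to 131.2 CPM, with a median of 117.4 CPM, against 62.1, 69.0 and 80.3 CPM (lowest, median and highest of 9) at ZT9. Its log2 ratio there was 0.54 ± 0.09 (SE, n = 60; edgeR adjusted p = 0.000212), and 0.38 with the first cycle alone, which missed the threshold (edgeR adjusted p = 0.226). In hypothalamus it had 107.3, 132.5 and 159.9 CPM at ZT18 (lowest, median and highest of 6), against 83.5, 101.5 and 130.7 CPM in the 12 libraries of ZT6. Those groups overlapped, and the log2 ratio was 0.38 ± 0.06 (SE, n = 77; edgeR adjusted p = 5.54e-06) with its peak at ZT19.7.

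Of the transcription factors, Atf4 was called in hypothalamus (0.25 ± 0.06, peak ZT18.1, edgeR adjusted p = 0.00733) and in cortex (0.16 ± 0.06, peak ZT19.2, edgeR adjusted p = 0.0494; log2 ratios with SE). With the first cycle alone neither held (edgeR adjusted p = 0.393 in hypothalamus and 0.465 in cortex). The cortex call was also lost with no low-count filter (0.0601) and with the cycle as a covariate (0.248), and the hypothalamus call with ZT as 8 free groups (0.167). The hypothalamus call was not repeated without ZT18 replicate 4, the library with the most Atf4 there. Atf3 in hypothalamus had 1.01, 1.56 and 2.95 CPM at ZT15 (lowest, median and highest of 6), against 0.658, 0.945 and 1.40 CPM in the 11 libraries of ZT9, with overlap. Its log2 ratio of 0.57 ± 0.15 (SE, n = 77; edgeR adjusted p = 0.0086) was 0.45 in the first cycle alone and not called (edgeR adjusted p = 0.279). Ddit3 was called in cortex at 0.19 ± 0.06 (SE, n = 78; edgeR adjusted p = 0.0362).

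Among the targets, Trib3 in cortex had 0.826, 1.02 and 1.31 CPM (lowest, median and highest of 12) at ZT3, against 0.301, 0.433 and 0.603 CPM in the 6 libraries of ZT15. The groups did not overlap. Its log2 ratio was 0.75 ± 0.18 (SE, n = 78; edgeR adjusted p = 0.00233) with the peak at ZT4.1, and 0.69 without the 2 cortex libraries that lacked cortical markers. Those libraries held its highest cortical values, 2.29 CPM at ZT0 and 2.56 CPM at ZT9. A median of 27.5 reads a library lay behind Trib3 in cortex. Chac1 (0.29 ± 0.09, edgeR adjusted p = 0.0143) and Asns (0.12 ± 0.03, edgeR adjusted p = 0.00632) were called in cortex too (log2 ratios with SE, n = 78). Cortical Asns averaged 113.1 ± 9.20 CPM at ZT9 and 102.1 ± 7.07 CPM at ZT0 (SD, n = 12 each), with overlap. Ppp1r15a in cortex (0.14 ± 0.06, edgeR adjusted p = 0.0981) was called once the 2 marker-poor libraries were left out (edgeR adjusted p = 0.0251). In hypothalamus Trib3 (0.43 ± 0.15, edgeR adjusted p = 0.0694) was called without the 2 pituitary-rich libraries (edgeR adjusted p = 0.0474).

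No gene of the 10 was called for a 12 h component in the brain by edgeR, where 0.0686% of all genes were called in hypothalamus, 0.0277% in striatum and 0.332% in cortex. At an unadjusted p under 0.05 in edgeR there were 2, 2 and 3 of the 10. The share of all genes at that cutoff is not given here, so these counts have no background beside them. DESeq2's likelihood ratio test called 0, 2 and 0 of the 10, where it called 9, 71 and 171 of all genes. The 2 in striatum were Ddit3 (log2 ratio 0.48 ± 0.11, DESeq2 adjusted p = 0.0349) and Xbp1 (0.42 ± 0.10, DESeq2 adjusted p = 0.0461; SE from edgeR, n = 60). The edgeR adjusted p was 0.104 for Ddit3 and 0.115 for Xbp1, and Ddit3 was called without the striatum library ZT15 replicate 1 (edgeR adjusted p = 0.0472). In cortex Ddit3 was called without the 2 marker-poor libraries (log2 ratio 0.27, edgeR adjusted p = 0.0326), and with the first cycle alone Ddit3 (0.32, edgeR adjusted p = 0.0109) and Xbp1 (0.36, edgeR adjusted p = 0.0161) were.

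**Figure D3:**
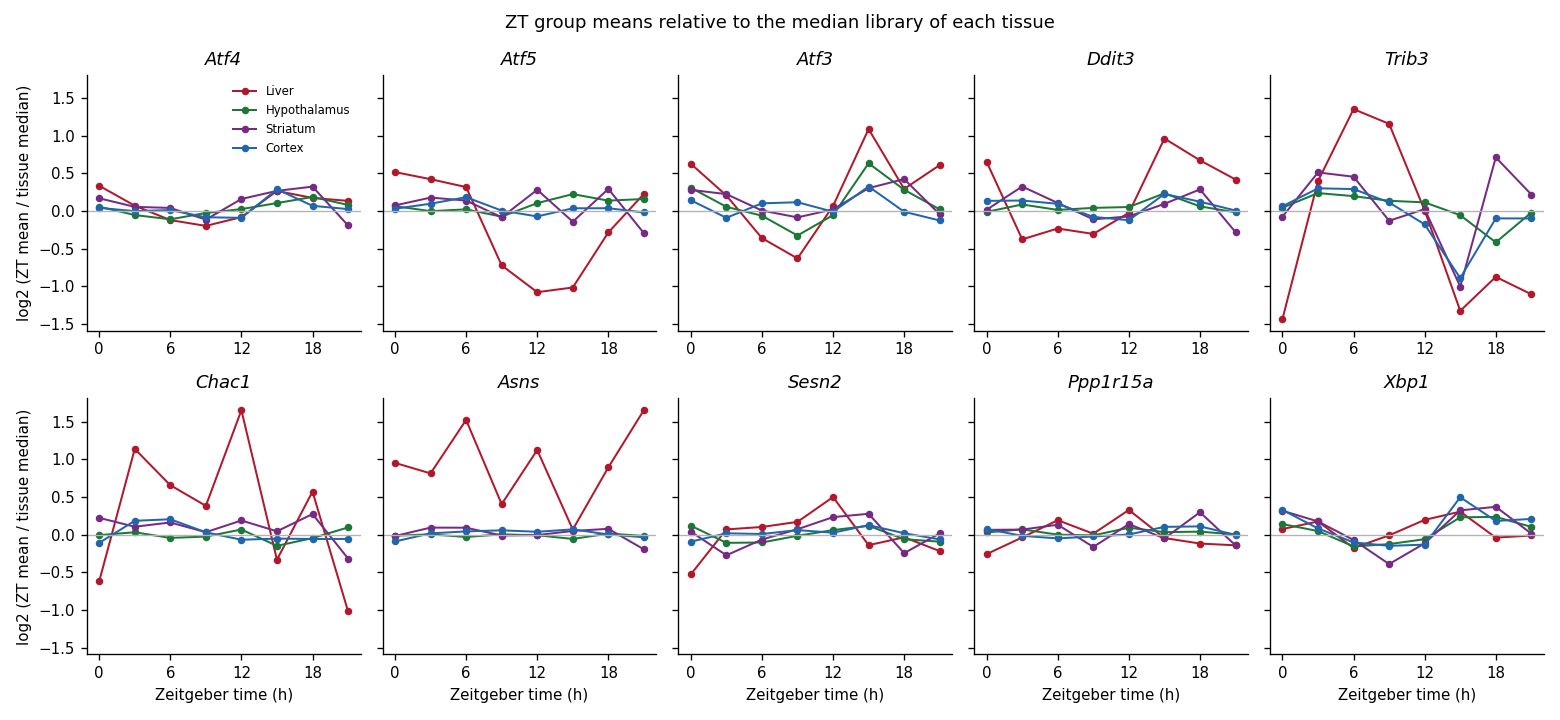
Mean CPM of each ZT group over the median library of its tissue, as log2, against zeitgeber time in hours, 1 line per tissue. The liver lines of Trib3, Atf5, Ddit3, Atf3 and Chac1 move farther from 0 than those of the brain tissues; for Xbp1 the brain lines are lowest from ZT6 to ZT12; striatum ZT15 is a mean of 2 libraries.

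Whether a rhythm differed between tissues was tested with the interaction of tissue and the 24 h cosine and sine, with edgeR's quasi-likelihood test over all genes that passed the filter in both tissues. Liver differed from cortex in 9 of 10 genes (63.6% of all genes), from hypothalamus in 9 (60.8%) and from striatum in 8 (42.0%). The comparisons share the liver libraries. Asns was not called in any of them. Trib3 had log2 ratios of 3.00 in liver and 0.75 in cortex (edgeR adjusted p of the difference = 1.55e-14), and Atf5 had 1.73 and 0.16 (edgeR adjusted p = 5.06e-24).

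For Xbp1 the order was the reverse: 0.14 in liver against 0.52 in cortex (edgeR adjusted p of the difference = 0.0017), 0.13 in liver against 0.52 in striatum (0.00462) and 0.13 in liver against 0.37 in hypothalamus (0.0472). The last of these was lost without the libraries that stood apart (edgeR adjusted p = 0.0803) and with no low-count filter (0.05). Atf3 against hypothalamus (edgeR adjusted p = 0.0348) was 0.0526 in a limma fit of differences within mice and 0.0769 in edgeR with no low-count filter. Sesn2 against striatum (edgeR adjusted p = 0.0424) lay between 0.0575 and 0.0893 under other size factors, no filter and without the libraries that stood apart. Atf4 against striatum missed at 0.0501 and passed in 3 other settings.

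Between brain tissues none of the 10 was called, where 6.14% of all genes were between hypothalamus and cortex, 0.292% between hypothalamus and striatum and 0.501% between striatum and cortex. At an unadjusted p under 0.05 in edgeR there were 4, 1 and 0 of the 10, with no other count-based tool run on this comparison. The share of all genes at that cutoff is not given here either. Log2 ratios of Xbp1 were 0.38 in hypothalamus, 0.53 in striatum and 0.52 in cortex.

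Levels were compared between genes on the deposited FPKM scale, which divides by the length of the gene model. In liver the median library held 80.95 FPKM of Atf5, 69.1 of Xbp1, 64.7 of Atf4, 3.78 of Ddit3, 2.97 of Ppp1r15a, 2.95 of Trib3, 1.77 of Sesn2, 1.05 of Asns, 0.735 of Chac1 and 0.489 FPKM of Atf3. In cortex the order was Atf4 at 70.5, Asns at 39.9, Xbp1 at 22.5, Ddit3 at 10.2, Atf5 at 5.95, Chac1 at 3.80, Sesn2 at 3.61, Ppp1r15a at 3.43, Trib3 at 0.384 and Atf3 at 0.253 FPKM. The ranges over libraries of neighbours in these orders overlapped, except in cortex between Atf4 and Asns and between Ppp1r15a and Trib3. In liver the lowest Atf4 value was 10.3 FPKM and the highest Ddit3 value 13.7 FPKM. On TMM-scaled counts those 2 genes did not overlap in liver, with at least 76.3 CPM of Atf4 and at most 23.3 CPM of Ddit3. FPKM is scaled to the whole total, the share of Gm42418 included.

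**Figure D4:**
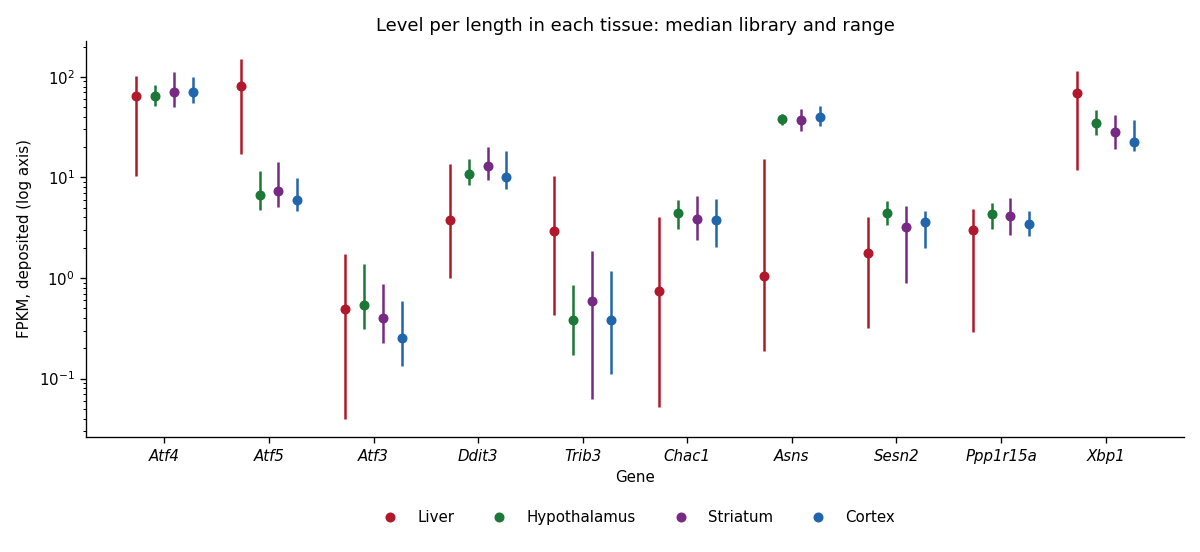
Deposited FPKM of each gene on a log axis, with the median library as a point and the range as a bar, for liver, hypothalamus, striatum and cortex from left to right. Atf5, Trib3 and Xbp1 are highest in liver and Asns, Chac1, Ddit3, Sesn2 and Ppp1r15a lowest there, by the median library.

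Tissue levels averaged over the fitted day were tested with edgeR on TMM-scaled counts. That fit, like the test of rhythms between tissues, treated libraries of the same mouse as independent. Differences within mice were the alternative. A lower level in a whole tissue can come from fewer cells that hold the RNA or from less RNA per cell, and these cannot be told apart here. Against cortex, liver was higher in 6 genes and lower in 4 (48.1% of all genes higher and 47.9% lower). Against hypothalamus it was again 6 and 4 (48.5% and 46.4%), and against striatum 6 and 3 (47.0% and 45.9%).

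Atf5 averaged 79.2 ± 36.3 FPKM in liver (SD, n = 77), against 6.89 ± 1.38 in hypothalamus, 7.62 ± 1.73 in striatum and 6.10 ± 0.942 FPKM in cortex (SD, n = 77, 60 and 78), with no overlap between liver and the others. On TMM-scaled counts it was 19.7-, 16.5- and 20.4-fold higher in liver, with log2 differences of 4.30 ± 0.05, 4.05 ± 0.07 and 4.35 ± 0.05 (SE). Trib3 was 12.6-, 6.54- and 11.4-fold higher in liver than in hypothalamus, striatum and cortex, and Xbp1 4.01-, 4.55- and 5.34-fold higher. Mean FPKM of Trib3 was 3.64 in liver, against 0.393, 0.691 and 0.398 in the same order. That of Xbp1 was 72.5, against 35.4, 28.6 and 23.7. The gaps of Atf5, Trib3 and Xbp1 were thus narrower on the FPKM scale, so their size depended on the scaling.

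Asns averaged 2.18 ± 3.15 FPKM in liver, against 37.6 ± 2.31 in hypothalamus, 37.3 ± 3.40 in striatum and 40.1 ± 2.82 FPKM in cortex (SD). The highest liver library, at 15.3 FPKM, was below the lowest brain library, at 29.0 FPKM. Its log2 differences of liver from hypothalamus, striatum and cortex were -3.15 ± 0.17, -3.25 ± 0.20 and -3.40 ± 0.16 (SE). Chac1 was lower in liver than in each brain tissue by log2 differences of -1.07, -1.08 and -1.02, and Ddit3 by -0.25, -0.63 and -0.34. On the FPKM scale the Ddit3 gap was wider, with a mean of 4.54 in liver, against 11.04 in hypothalamus, 13.35 in striatum and 10.54 FPKM in cortex. Sesn2 was lower than in hypothalamus (-0.39) and cortex (-0.23), and its difference from striatum was 0.00 ± 0.07 (SE; edgeR adjusted p = 0.966), which became 0.19 and was called with no low-count filter (edgeR adjusted p = 0.0147). Its mean FPKM was 1.79 in liver, against 4.50 in hypothalamus, 3.19 in striatum and 3.61 in cortex, so for Sesn2 the size of the difference, and from striatum its presence, depended on the scaling.

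Atf3, Atf4 and Ppp1r15a were higher in liver on TMM-scaled counts, but the direction of the last and of Atf4 depended on the scaling. Atf4 had log2 differences of 1.05, 0.71 and 0.74 from hypothalamus, striatum and cortex, while its mean FPKM was 67.4 ± 14.1 in liver, 64.2 ± 7.09 in hypothalamus, 74.5 ± 16.8 in striatum and 71.5 ± 8.13 in cortex (SD). Ppp1r15a had log2 differences of 0.40, 0.28 and 0.56, while its mean FPKM was lowest in liver, at 2.95 ± 0.623, against 4.33 ± 0.567, 4.32 ± 0.739 and 3.46 ± 0.369 (SD). Atf3 had log2 differences of 1.02, 1.36 and 1.98, while its mean FPKM was 0.576 in liver, against 0.566 in hypothalamus, 0.416 in striatum and 0.266 in cortex (medians 0.489 in liver and 0.540 in hypothalamus). With no low-count filter the median log2 difference of all genes moved by -0.19 to -0.25 in the liver pairs.

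Among brain tissues the differences were smaller. Hypothalamus was higher than cortex in 4 genes and lower in 3 (45.5% of all genes higher and 43.3% lower), and higher than striatum in 3 and lower in 6 (33.2% and 39.6%). Striatum was higher than cortex in 6 and lower in 2 (46.1% and 39.0%). Atf3 was 1.94-fold higher in hypothalamus than in cortex, Xbp1 1.32-fold higher, and Trib3 1.79-fold higher in striatum than in cortex. In log2 terms Trib3 was lower in hypothalamus than in striatum by -0.99 ± 0.11 (SE, n = 137 libraries, edgeR adjusted p = 3.33e-14). Of the mice, 59 gave both of these tissues.

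The second cycle was set against the first at ZT0 to ZT12. None of the 10 genes was called by edgeR in any tissue, where 0% of all genes were called in liver, 0% in hypothalamus, 2.92% in striatum and 6.82% in cortex. At an unadjusted p under 0.05 there were 0 of the 10 in liver, 2 in hypothalamus (Ddit3 and Xbp1), 2 in striatum (Trib3 and Sesn2) and 2 in cortex (Atf4 and Sesn2). DESeq2 called 0, 0, 2 and 1. Over all genes, 1100 of 15604 in liver, 1179 of 19696 in hypothalamus, 4543 of 19813 in striatum and 4194 of 18909 in cortex had an unadjusted p under 0.05 in edgeR. DESeq2 called 0 in liver, 0 in hypothalamus, 1631 in striatum and 1572 in cortex.

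In striatum Trib3 had a log2 difference of second minus first cycle of -0.72 ± 0.21 and Sesn2 of 0.29 ± 0.09 (SE, n = 26 and 22 libraries; edgeR adjusted p = 0.0506 for both). DESeq2 gave adjusted p of 0.0226 for Trib3 and 0.0255 for Sesn2. The 5 libraries at 36 h held 0.844 ± 0.309 CPM of Trib3, against 1.70 ± 0.667 CPM in the 6 libraries at 12 h (SD). In cortex Atf4 (-0.10, edgeR adjusted p = 0.0483) and Sesn2 (-0.14, edgeR adjusted p = 0.00831) were called without the 2 marker-poor libraries.

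Mice taken at the same time differed most in Asns, Chac1 and Atf3 in liver. The spread is given as the biological coefficient of variation (BCV) around the means of the time points. For liver Asns it was 91.1%, against a trend of 18.3% for genes of its level, and 99.8% of the 16159 genes tested had a lower one. Liver Chac1 had 56.3% and liver Atf3 34.9%, while Atf4 had 12.7% and Ppp1r15a 14.2%, near the liver median of 14.8%. Without the library rich in Gm42418 the BCV of liver Asns was 91.5%.

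The same enzyme was among the steadiest of the 10 in the brain. Asns had a BCV of 8% in hypothalamus, 14.5% in striatum and 7.04% in cortex, and at most 11.6% of genes had a lower one in any of these tissues. Trib3 had 22.7% in hypothalamus, 48.6% in striatum and 30.7% in cortex, the last falling to 20.7% without the 2 marker-poor libraries.

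**Figure D5:**
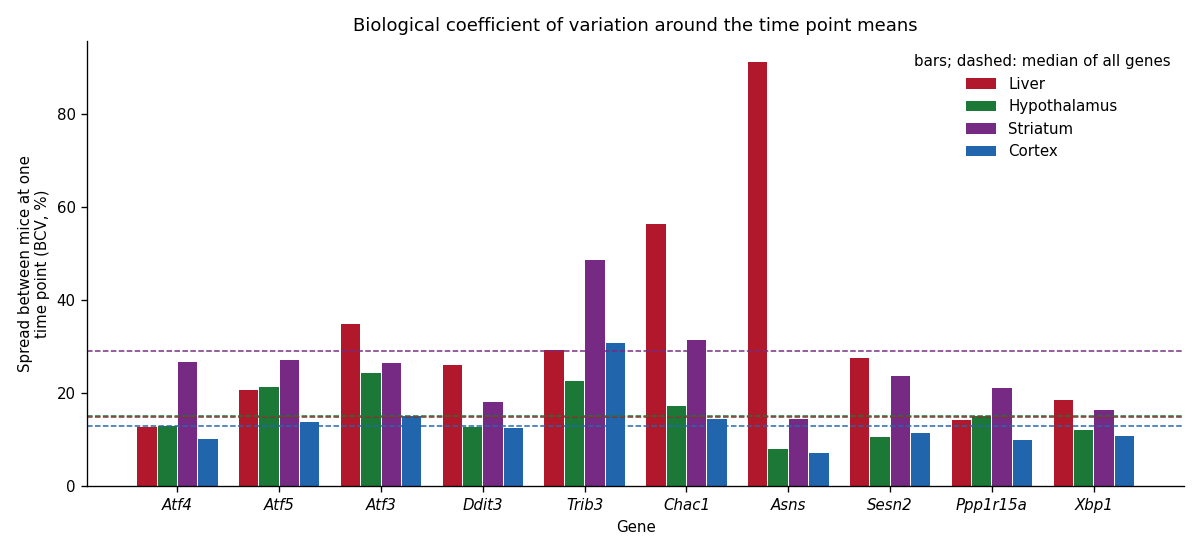
Biological coefficient of variation around the time point means, in percent, for each gene with 1 bar per tissue in the order liver, hypothalamus, striatum and cortex; dashed lines mark the median of all genes in the tissue. Asns reaches 91.1% in liver and lies between 7.04% and 14.5% in the brain tissues.

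How the genes varied together was taken from the residuals of log2 CPM around the time point means, with a permutation test of 100000 resamples and adjustment over 180 pairs. In hypothalamus 43 of 45 pairs had a positive Pearson r (median 0.524), and 36 passed, all of them positive. A positive r was found for 37 of 45 in striatum (median 0.440), 35 of 45 in cortex (0.240) and 27 of 45 in liver (0.112). Of the pairs that passed, 29 of 32 were positive in striatum, 17 of 19 in cortex and 9 of 17 in liver. All pairs of a tissue share library, depth and composition. Pairs of other genes were not computed, so whether these genes varied together more than others did was not tested.

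Atf4 and Xbp1 in hypothalamus had r = 0.857 and rho = 0.825 (permutation p = 1e-05, the smallest the resamples can give; adjusted p = 3.83e-05; r = 0.837 without the 2 libraries farthest from the median; n = 77). Atf4 and Chac1 in striatum had r = 0.871 and rho = 0.863 (permutation p = 1e-05, adjusted p = 3.83e-05, r = 0.854 without 2, n = 60). In liver, Sesn2 and Xbp1 went opposite ways, with r = -0.616 and rho = -0.627 (permutation p = 1e-05, adjusted p = 3.83e-05, r = -0.595 without 2, n = 77). Trib3 and Xbp1 in liver had r = -0.548 and rho = -0.531 (permutation p = 2e-05, adjusted p = 7.06e-05, r = -0.511 without 2, n = 77).

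Between tissues of the same mouse 60 correlations were computed, and 1 passed. Xbp1 in hypothalamus and cortex had r = 0.450 and rho = 0.406 (permutation p = 6e-05, adjusted p = 0.0036, r = 0.405 without 2, n = 77 mice). For liver with each brain tissue the median r of the 10 genes was -0.0223 for hypothalamus, 0.0998 for striatum and 0.163 for cortex.

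The genes most like each of the 10, by Pearson r of log2 CPM over all libraries of a tissue, time of day included, are given as a description. In the 77 liver libraries they were Fbxo21 (0.932), Flcn and Junb for Trib3, Spon2 (0.909), Elovl5 and B3gat3 for Atf5, P4ha1 (0.856), Hspa1b and Bag3 for Ddit3, and Pck1 (0.810) first for Sesn2. Liver Asns was closest to Mmd2 (0.799), Tff3 and Gldn, liver Atf4 to Mal2 (0.765), liver Atf3 to Rpl7l1 (0.771), liver Chac1 to D230025D16Rik (0.694), liver Ppp1r15a to Cyth2 (0.803) and liver Xbp1 to Ces3b (0.815). In the 78 cortex libraries Xbp1 was closest to Manf (0.941), Pdia4 and Sdf2l1, which encode proteins of folding in the ER, Atf4 to Map1lc3b (0.868), Ddit3 to Cryab (0.834), Asns to Ola1 (0.884) and Trib3 to Mob3b (0.75). Without the libraries that stood apart, another gene came first for some: Bag3 (0.862) for Ddit3, Mesd (0.774) for Atf3 and Nfkbia (0.764) for Ppp1r15a in liver, and Elof1 (0.871) for Atf4 in cortex.

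Genes around the 10 in the pathway were counted in 5 lists, also chosen with earlier results of these data known. In liver, 13 of 16 genes of the eIF2 kinases and eIF2 control were called over 24 h, with a median log2 ratio of 0.33, beside the 0.38 of all genes. Among them were Nck1, an adaptor that lowers eIF2 phosphorylation (log2 ratio 0.58 ± 0.07, peak ZT19.4), Ppp1r15b, the constitutive counterpart of Ppp1r15a (0.57 ± 0.07, ZT16.7), and Eif2b3, a subunit of the eIF2 exchange factor (0.55 ± 0.07, ZT16.3). Of the amino acid targets of ATF4, 21 of 27 were called, led by the threonyl-tRNA synthetase gene Tars (1.34 ± 0.08, ZT23.4), the aminotransferase Gpt2 (0.80 ± 0.06, ZT14.4) and the glycine transporter Slc6a9 (1.15 ± 0.09, ZT12.1). Other targets of ATF4 and CHOP gave 14 of 18, with Ddit4, an inhibitor of mTORC1, at 2.26 ± 0.18 and ZT19.5 and Ndrg1 at 1.80 ± 0.12 and ZT1.8. These shares are near the liver background.

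The IRE1 and ATF6 branches, which raise chaperones and ER-associated degradation, gave 23 of 28 in liver, 14 of 28 in hypothalamus, 8 of 28 in striatum and 20 of 28 in cortex, where 72.8%, 24.3%, 5.70% and 43.7% of all genes were called. Peaks between ZT18 and ZT24 were fitted for 12 of the 23 called in liver, 11 of the 14 in hypothalamus, 8 of the 8 in striatum and 14 of the 20 in cortex. Over all genes called the shares with such a peak were 26.3%, 33.0%, 46.3% and 31.9% in the same order of tissues, and among the immediate early genes called they were 2 of 8, 4 of 6, 5 of 5 and 11 of 13. Neither the counts nor the peak times of the list were tested against other genes. Hspa5, the main ER chaperone, had log2 ratios of 0.78 ± 0.08 in striatum (ZT21.7) and 0.94 ± 0.08 in cortex (ZT21.0), and Pdia6 0.31 ± 0.04 in hypothalamus (ZT22.7) and 0.62 ± 0.05 in cortex (ZT21.5). Of this list 16 of 28 had a 12 h component in liver, where 15.4% of all genes did, led by Sec24d (0.79 ± 0.08), Manf (1.23 ± 0.14) and Atf6b (0.58 ± 0.07), with first peaks from ZT2.9 to ZT3.1, beside ZT1.6 and ZT13.6 for Xbp1. In cortex 6 of 28 had one, Hspa5, Pdia6 and Sdf2l1 among them, and in striatum 1, Calr, beside 0.332% and 0.0277% of all genes.

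In the brain the eIF2 list gave 6 of 16 in hypothalamus, 1 of 16 in striatum and 6 of 16 in cortex, and the amino acid list 9, 2 and 10 of 29, beside the background of 24.3%, 5.70% and 43.7%. Eif2b3 was called in each tissue, with peaks at ZT16.3 in liver, ZT9.9 in hypothalamus, ZT9.4 in striatum and ZT10.1 in cortex. Slc7a5, a transporter of large amino acids, was called in the brain tissues with peaks from ZT10.9 to ZT12.4. Other targets of ATF4 and CHOP gave 7, 2 and 13 of 16.

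Immediate early genes, which neuronal activity and tissue handling are known to raise, were called in 8 of 11 in liver, 6 of 14 in hypothalamus, 5 of 14 in striatum and 13 of 14 in cortex. Of all genes 72.8%, 24.3%, 5.70% and 43.7% were called in these tissues, so the liver share was at the background. Their median log2 ratio was 1.10 in cortex, and Arc reached 3.27 ± 0.31 there with a peak at ZT19.1. Atf3 is induced by the same signals, and its ratio in cortex was 0.09 ± 0.12 (SE, n = 78; edgeR adjusted p = 0.825). A median of only 18 reads a library lay behind Atf3 in cortex. Whether these genes moved with the 10 for a shared reason was not tested.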

How the data were processed

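RNA-seq of 4 mouse tissues was read from the gene counts that the authors deposited, 1 table per tissue. HTSeq 0.10.0 and STAR 2.7.3a are listed, with the builds mm10 and GRCm38, per the submitters' processing notes; no source used here gives an annotation release or says whether counting used strand. The FPKM values deposited by the authors were used to compare levels between genes. Symbols came from the reference tables, with 48349 of 48795 identifiers matched. Counts were scaled by TMM, filtered with filterByExpr and tested with the quasi-likelihood test of edgeR 4.0.16 in R 4.3.3, with Benjamini-Hochberg adjustment over all genes tested and a threshold of 0.05. DESeq2 1.42.0, limma 3.58.1, other size factors, no filter, 1 cycle alone, libraries left out and blocks for replicate number served as alternatives. The tests were tried on simulated counts. Correlations used residual log2 CPM (prior count 2) and 100000 permutations. Depth limits Atf3, Trib3 and Chac1 most. The members and gene lists were chosen with earlier results of these data known. In each tissue list the named genes are at most 3, those with the smallest adjusted p. Separate mouse codes mark the replicates.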

Additional observations from a re-analysis of the deposited data

Results flagged for a closer look

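Of 140 groups of 4 to 10 libraries, 8 held a value far from the rest, about the number that a chance rate of 5% gives. Ddit3 in liver reached 23.3 CPM in ZT18 replicate 5, with the next value at 11.8 CPM, and 14 CPM in ZT21 replicate 3, with the next at 8.73 CPM. The same ZT21 library held 37.4 CPM of Asns, where the next held 5.69 CPM. Atf3 in striatum was 2.35 CPM in ZT0 replicate 7, above a next value of 1.07 CPM, and 1.54 CPM in ZT21 replicate 3, the library rich in cerebellar RNA, above 0.814 CPM. Low values were Sesn2 in hypothalamus ZT15 replicate 5 at 13.9 CPM (next 16.7; the library with 412 CPM of striatal genes), Asns in hypothalamus ZT18 replicate 1 at 87.5 CPM (next 104) and Asns in cortex ZT21 replicate 3 at 98.2 CPM (next 107).

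The 24 h rhythm differed by edgeR's interaction test in 9 of the 10 genes for liver against cortex, 9 for liver against hypothalamus and 8 for liver against striatum, where 63.6%, 60.8% and 42.0% of all genes were called. Nothing particular to the 10 genes follows from these counts.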

How the results depend on the processing

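Of the counts recomputed, 363 stayed within 1.5 times and 65 moved. Of the values for single genes, 1623 kept their side of the threshold with no reversal counted, 28 passed it anew, 25 lost it and 4 reversed. A reversal was a change of sign for cycles and tissue levels. For the 24 h rhythm of a tissue it was a peak shift of over 6 h, and for 12 h a shift in proportion. Such shifts were counted only where both settings called the gene. Reversals were not looked for in rhythms compared between tissues. The cause of the changes below was not tested.

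With the first cycle alone, calls among the 10 genes were 2 in liver over 12 h (1141 of all genes), 1 in hypothalamus over 24 h (17 pathway genes, 2155 of all), 0 in striatum over 24 h (6 and 326) and 2 in cortex over 12 h (11 and 123); over 12 h, all genes called were 2 in hypothalamus and 0 in striatum, with 0 pathway genes there. With no low-count filter, all genes called over 12 h were 68 in hypothalamus and 41 in striatum, 0 between cycles in striatum, 25229, 25214 and 24632 for the level of liver against cortex, hypothalamus and striatum, and 299 and 339 for the rhythm of hypothalamus against striatum and of striatum against cortex. Without the libraries that stood apart, 12 h calls were 2 pathway genes in hypothalamus, 0 pathway genes and 0 of all in striatum, and 1 of the 10 genes and 137 of all in cortex; between cycles they were 0 of all in striatum and 2 of the 10 and 3076 of all in cortex; the rhythm of hypothalamus against striatum gave 12. With the second cycle as a covariate striatum had 0 pathway genes and 3 of all over 12 h, and with the form of the library name as a covariate 0 and 2. With ZT as free groups 2 of the 10 were called in striatum.

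DESeq2's likelihood ratio test called over 12 h 9 genes in hypothalamus, 171 in cortex and 71 in striatum (5 pathway genes, 2 of the 10), and between cycles 1631 genes and 2 of the 10 in striatum and 1 of the 10 in cortex. DESeq2 size factors gave 2 of the 10 between cycles in striatum. Differences within mice gave 0 for the rhythm of hypothalamus against striatum and 8 for striatum against cortex, and Chac1 reversed to 0.02 (log2, hypothalamus minus striatum). Leaving out each replicate of the smallest striatum groups in turn gave 0 to 1 of the 10 genes over 12 h, 0 to 1 pathway genes and 5 to 44 of all genes; without ZT15 replicate 1 Ddit3 was called (edgeR adjusted p = 0.0472). Leaving out hypothalamus ZT15 replicate 5, chosen after seeing the data, moved no count by over 1.5 times in hypothalamus or its tissue pairs, and no call of the 10 genes.

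Replicate numbers did not meet the rule for a pairing (every same-numbered pair over 0.1): same-numbered libraries correlated at 0.007 in liver, 0.1586 in hypothalamus, 0.0796 in striatum and 0.0854 in cortex on average, against 0.0015, -0.0132, -0.0059 and -0.0041 for other numbers, and 6 of 77, 15 of 77, 10 of 60 and 18 of 78 correlated best with their own number. With a replicate block, 5 of the 10 genes were called in hypothalamus over 24 h; over 12 h 3 of the 10, 29 pathway genes and 5207 of all in striatum, 0 of all in hypothalamus and 128 in cortex; between cycles 1 of all in hypothalamus, 0 in striatum and 259 in cortex; and 3 and 37 for the rhythm of hypothalamus against striatum and of striatum against cortex. By single genes over 24 h Atf4 (edgeR adjusted p = 0.0564) and Chac1 (0.0697) were no longer called in cortex with the block, while Ppp1r15a was called there (0.0213) and Sesn2 (0.0102) and Atf5 (0.0166) in hypothalamus; over 12 h in liver Atf5 was lost (0.0992). The replicate block turned Ddit3 to 0.01, Chac1 to -0.02 and Sesn2 to -0.01 (log2, second minus first cycle in liver).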
